A study of Arabidopsis thaliana with 18 samples.

Results

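The 10 floral organ identity genes described here encode MADS-domain transcription factors of Arabidopsis thaliana. They were taken by their AGI loci from the deposited gene tables: AP1 (AT1G69120), AP3 (AT3G54340), PI (AT5G20240), AG (AT4G18960), SHP1 (AT3G58780), STK (AT4G09960), SEP1 (AT5G15800), SEP2 (AT3G02310), SEP3 (AT1G24260) and SEP4 (AT2G03710). All 10 were present in both tables, among 28424 entries (25068 AGI loci) for pollen nuclei and 24292 entries (21137 AGI loci) for microspores. The loci were listed by name and not by a measured value, but with earlier results of these data known.

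Floral organ identity follows a combinatorial code in which class A, B, C, D and E genes act in overlapping whorls of the flower, and the proteins work as tetramers held together by class E (SEPALLATA) members. Outside the flower these genes are classic Polycomb targets: their chromatin carries histone H3 trimethylated at lysine 27 (H3K27me3), which keeps them off in leaves and roots. REF6 is a Jumonji demethylase that removes this mark and finds its sites through zinc fingers. Pollen itself is a product of the stamen, whose identity needs class B, C and E genes, but the male gametophyte inside it is not known to rely on them.

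RNA was measured in 18 libraries, in 6 groups of 3, all from Col-0 plants grown in a greenhouse in long days. Vegetative cell nuclei (VC, sorted as GFP-positive) and sperm cell nuclei (SC, sorted as RFP-positive) came from mature pollen. Late microspores (LMS), the stage before the division that makes both cells, came from unopened buds, gated on their green autofluorescence while grains positive for RFP were discarded. Polyadenylated RNA was taken from nuclei and total RNA from microspores, and SMART-Seq HT cDNA was sequenced. The line named V-Mt carried pLat52:REF6-GFP, in which the LAT52 promoter is active in the vegetative cell, together with RFP-tagged sperm histone HTR10 under its own promoter; the labels number that histone from HTR10 to HTR15 over the V-Mt pollen libraries. WT VC and WT SC carried pACTIN11:H2B-GFP and the HTR10-RFP marker, and WT LMS the HTR10-RFP marker alone. So the GFP fusion used to sort VC nuclei was not the same in both lines. The labels do not say whether V-Mt is 1 transgenic event, nor whether its replicates are separate plants. A p-value here reflects only the spread among the sequenced samples, and that spread may be technical.

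Values are FPKM (fragment counts corrected for transcript length and library size), as the authors deposited them, and so may be set side by side between genes. The files hold no counts. Steps between low values gave estimated depths of 9300000 to 24000000 fragments in the pollen libraries and of 1900000 to 3200000 in the microspore libraries, so that 1 fragment on a member was worth about 0.022 to 0.11 FPKM in pollen and 0.16 to 0.53 FPKM in microspores. V-Mt VC (9600000, 10000000 and 15000000) was shallower than WT VC (17000000, 18000000 and 24000000). REF6, whose value can hold reads of both the transgene and the native gene, stood at 1303, 2248 and 3001 FPKM in V-Mt VC and at 1.10, 0.42 and 0.48 FPKM in WT VC. In V-Mt SC it stood at 28.9, 58.4 and 436 FPKM, against 24.6, 23.2 and 10.8 FPKM in WT SC. The third V-Mt SC library, the one with the high REF6 level, also held more of the vegetative cell marker VGD1 (1084 FPKM, against 243 and 308 FPKM in the other V-Mt SC libraries). The vegetative markers CPK34 (2.8 against 56.3 and 55.4 FPKM), AGL65 (20.7 against 98.6 and 91.8 FPKM) and PRK6 (5.09 against 10.4 and 19.6 FPKM) were lowest in that library. ANX1 was not (10.0 against 13.2 and 7.71 FPKM). All 5 of these vegetative markers overlapped between V-Mt VC and V-Mt SC, with CPK34 at 8.36, 8.92 and 9.92 FPKM in V-Mt VC. The share of vegetative nuclei in the third V-Mt SC library was not tested. Results that rest on it are also given without it.

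Because the members are Polycomb targets, their sequences were searched for DNA motifs tied to that system. The telobox AAACCCTA, bound by factors that bring in Polycomb complexes in Arabidopsis, was found in the transcribed region (annotated start to end) of 10 of 10 members. It lies in 32.7% of the 11802 coding genes between 2175 and 5684 bases long, the range the members span, and in 27.3% of all 27443 coding genes. In all there were 17 sites, 11 in introns and 6 in an exon of at least 1 transcript. One site of each member, the nearest to its start, is given here on the gene's own strand, with the telobox or its reverse complement in capitals (RefSeq, TAIR10.1).
SEP2: attgtatcaccAAACCCTAatgatctctca
SEP3: gattttgttgtAAACCCTAggaaacagtta
PI: aatttcatagcAAACCCTAaaattgagaaa
AP3: ttgtgtgatgcTAGGGTTTcgattatcatg
AP1: aatctttgaacTAGGGTTTtgatccctaac
AG: aaagtccgattTAGGGTTTtatgtttatgt
SHP1: agagccaagatTAGGGTTTggttaatttag
STK: agtgagaagctTAGGGTTTttgaagagaaa
SEP1: gaaaacacaccAAACCCTAacctcaccctc
SEP4: ttgatccatgtTAGGGTTTtgattcttaag

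The sites of the members with the highest levels lie at chr3:467061-467090 (SEP2, minus strand, 72 bases from the gene start), chr1:8594972-8595001 (SEP3, minus strand, 1133 bases from the start) and chr5:6829156-6829185 (PI, plus strand, 263 bases from the start). The SEP2 and PI sites fall in an exon and the SEP3 site in an intron. A match is a description of the letters and not a measured binding site.

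The motif read by the zinc fingers of REF6, CTCTGNTN with C or T at each N, was found in 4 of 10 transcribed regions, against 69.4% of coding genes in the same range of length. AG held 2 matches, SHP1 held 3, and AP1 and SEP1 held 1 each. SEP2, SEP3, PI, AP3, STK and SEP4 held none on either strand. GAGAGAGA was found in 8 of 10 members against 49.1% of genes of that length, with 8 overlapping matches in SHP1, 7 in SEP2 and 4 in SEP3, and the CArG box, the general MADS-domain binding site, in 4 of 10 against 17.5%. All matches were counted on both strands, overlaps included.

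The 250 bases before the annotated start are shown for the 3 members that were called higher in V-Mt VC, as the stretch where shared promoter letters would lie. PI holds a GAGA repeat, in capitals, which 4.91% of all promoters of this length hold. SEP2 and SEP3 held no match to any of these motifs, and of the other members SEP4 held 2 overlapping GAGA repeats and no promoter held the REF6 motif, the telobox or a CArG box, which 5.77%, 4.49% and 2.52% of all promoters hold. The regions are chr3:467152-467401 (minus strand), chr1:8596124-8596373 (minus strand) and chr5:6828654-6828903 (plus strand), printed 5′ to 3′ on the gene's strand from RefSeq, TAIR10.1.
SEP2: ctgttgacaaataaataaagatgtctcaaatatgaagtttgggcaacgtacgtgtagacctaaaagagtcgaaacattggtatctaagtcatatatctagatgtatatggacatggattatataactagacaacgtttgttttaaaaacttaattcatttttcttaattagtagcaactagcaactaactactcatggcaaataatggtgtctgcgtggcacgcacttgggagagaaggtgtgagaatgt
SEP3: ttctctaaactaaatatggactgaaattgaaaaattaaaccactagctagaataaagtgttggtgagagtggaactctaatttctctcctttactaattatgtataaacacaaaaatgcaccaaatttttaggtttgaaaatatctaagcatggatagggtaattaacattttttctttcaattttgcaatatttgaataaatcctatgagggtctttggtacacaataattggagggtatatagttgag
PI: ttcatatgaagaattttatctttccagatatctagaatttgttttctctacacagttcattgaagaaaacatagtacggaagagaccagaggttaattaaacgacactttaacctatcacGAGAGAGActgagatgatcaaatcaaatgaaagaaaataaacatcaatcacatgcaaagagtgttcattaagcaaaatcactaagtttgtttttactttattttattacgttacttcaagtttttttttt

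Summed over the 10 members, the level was 111, 96.7 and 90.8 FPKM in V-Mt VC and 14.7, 3.54 and 3.02 FPKM in WT VC. V-Mt SC held 6.62, 3.46 and 9.67 FPKM and WT SC 2.41, 7.65 and 3.71 FPKM. The 3 V-Mt VC libraries stood above every other pollen library, and the ranges of the other pollen groups overlapped one another. In the microspore table, which was normalized separately, the sum was 266, 270 and 383 FPKM in V-Mt LMS and 859, 379 and 574 FPKM in WT LMS. In bulk samples, fewer cells of a type and less RNA per cell cannot be told apart.

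**Figure D1:**
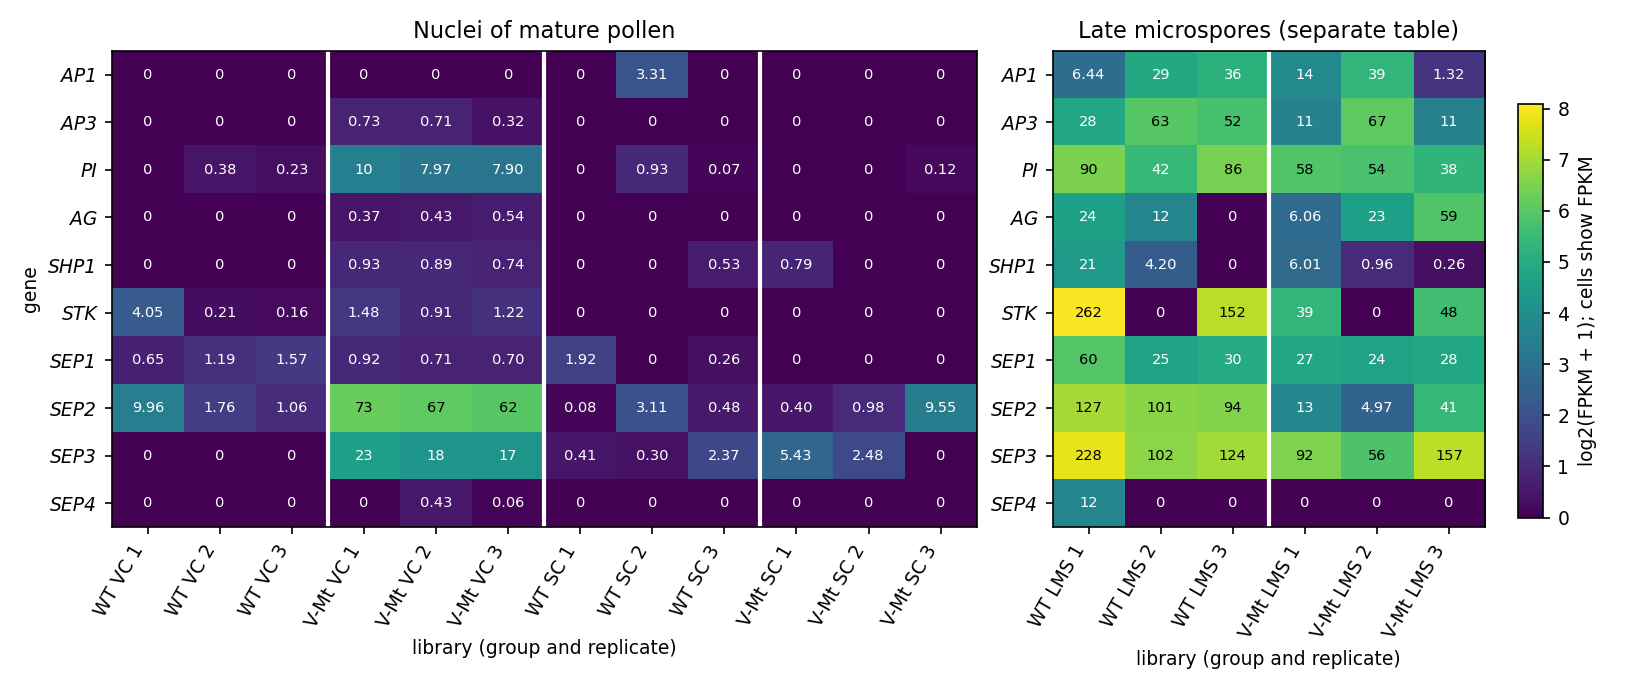
Heat map of the 10 floral organ identity genes (rows) in the 18 libraries (columns), coloured by log2(FPKM + 1) with FPKM printed in each cell; the microspore panel comes from a separately normalized table. SEP2, SEP3 and PI stand out in V-Mt VC among the pollen nuclei, and most members are above 0 in microspores.

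The class A gene AP1, which sets sepal and petal identity, was listed at 0 in 11 of 12 pollen libraries and at 3.31 FPKM in the second WT SC library. It was therefore not tested in pollen nuclei. AP1 spans chr1:25982294-25986349 on the minus strand.

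Of the class B genes, whose products pair to specify petals and stamens, PI (chr5:6828904-6831515, plus strand) stood at 10.3, 7.97 and 7.90 FPKM in V-Mt VC. In WT VC it stood at 0, 0.38 and 0.23 FPKM, in V-Mt SC at 0, 0 and 0.12 FPKM, and in WT SC at 0, 0.93 and 0.07 FPKM. Every V-Mt VC library lay above every library of the other pollen groups, which overlapped one another. For PI, V-Mt VC minus WT VC was 3.02 on the log2(FPKM + 1) scale (SE 0.26, adjusted p = 1.69e-06). PI passed the filter (at least 1 FPKM in 3 libraries) through its V-Mt VC libraries alone, so a difference there was needed for it to be tested. Its partner AP3 (chr3:20119140-20121314, minus strand) stood far lower, at 0.73, 0.71 and 0.32 FPKM in V-Mt VC, with a listed value of 0 in the other 9 pollen libraries. That is about 5 to 7 fragments of AP3 per V-Mt VC library, against about 81 to 116 of PI.

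AG, the class C gene of stamen and carpel identity that also ends flower meristem growth, was seen in V-Mt VC alone among the pollen groups, and at a low level. AG (chr4:10382856-10388539, plus strand) stood at 0.37, 0.43 and 0.54 FPKM in V-Mt VC, about 6, 7 and 14 fragments, and was listed at 0 in the other 9 pollen libraries. Neither AP3 nor AG reached 1 FPKM in any pollen library, so neither entered the filtered test.

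SHP1 and STK belong to the AG lineage and act in carpels, with SHP1 needed for the fruit's dehiscence zone and STK for ovule identity and seed detachment. SHP1 (chr3:21738160-21742517, plus strand) stood at 0.93, 0.89 and 0.74 FPKM in V-Mt VC, while all WT VC libraries listed it at 0. It was also seen in 1 library of each SC group, at 0.79 FPKM in the first V-Mt SC library and 0.53 FPKM in the third WT SC library. STK (chr4:6236375-6241281, minus strand) did not separate the lines: it stood at 1.48, 0.91 and 1.22 FPKM in V-Mt VC and at 4.05, 0.21 and 0.16 FPKM in WT VC, with the first WT VC library the highest of all. The STK difference was 0.19 (SE 0.45, adjusted p = 0.718) on the log2(FPKM + 1) scale. STK was listed at 0 in all 6 SC libraries.

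The 4 class E genes, the SEPALLATA cofactors that act in every whorl, differed widely among themselves. SEP2 (chr3:464279-467151, minus strand) was the most abundant member in V-Mt VC, at 73.3, 66.9 and 62.2 FPKM, or 67.5 ± 5.56 FPKM (SD, n = 3). It stood at 9.96, 1.76 and 1.06 FPKM in WT VC, at 0.40, 0.98 and 9.55 FPKM in V-Mt SC, and at 0.08, 3.11 and 0.48 FPKM in WT SC. The V-Mt VC libraries lay above all others by a wide margin, while WT VC and both SC groups overlapped, with the first WT VC and the third V-Mt SC library the highest of those. For SEP2, V-Mt VC minus WT VC was 4.11 on the log2(FPKM + 1) scale (SE 0.85, adjusted p = 0.00123), and 4.84 without the first WT VC library (adjusted p = 0.00065).

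SEP3 (chr1:8593536-8596123, minus strand), the cofactor with the broadest set of partners, stood at 22.95, 17.7 and 17.1 FPKM in V-Mt VC, and every WT VC library listed it at 0. In V-Mt SC it stood at 5.43, 2.48 and 0 FPKM and in WT SC at 0.41, 0.30 and 2.37 FPKM. Every V-Mt VC library lay above all other pollen libraries, and 5 of the 6 SC libraries held some SEP3 where WT VC held none. SEP3 was called higher in V-Mt VC (adjusted p = 7.79e-05). No ratio of FPKM is given against a group listed at 0. The fitted difference depends on the pseudocount, at 4.33 with 1 and 7.58 with 0.1.

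SEP1 (chr5:5151334-5154253, minus strand) behaved differently from SEP2, its closest relative. It stood at 0.92, 0.71 and 0.70 FPKM in V-Mt VC, at 0.65, 1.19 and 1.57 FPKM in WT VC, at 0 in V-Mt SC and at 1.92, 0 and 0.26 FPKM in WT SC. The V-Mt VC and WT VC libraries overlapped, and the difference was -0.24 (SE 0.33, adjusted p = 0.521) on the log2(FPKM + 1) scale. SEP4 (chr2:1129229-1131838, plus strand) was seen in V-Mt VC only, at 0, 0.43 and 0.06 FPKM, and was listed at 0 in the other 9 pollen libraries.

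**Figure D2:**
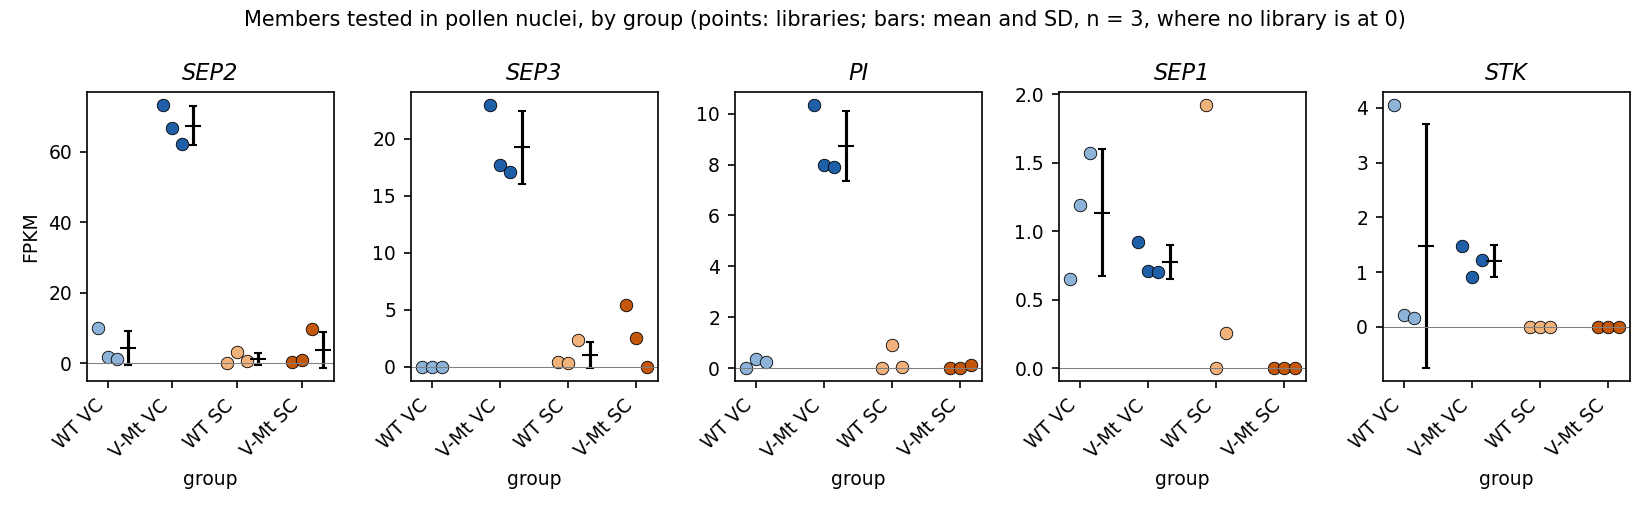
FPKM of the 5 members that passed the filter in pollen nuclei, by group, with 1 point per library and a bar for mean and SD (n = 3) where no library is at 0; each panel has its own linear axis. SEP2, SEP3 and PI are high in the 3 V-Mt VC libraries alone, while SEP1 and STK overlap between V-Mt VC and WT VC.

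Set against all genes, 3 of the 5 members tested were called higher in V-Mt VC than in WT VC and 0 lower, where 62.5% of the 19733 genes tested were called higher. PI and STK, like 35.3% of all genes tested, would not have reached the filter from the other 9 pollen libraries, so that count is no result about the members as a set. The median difference of the 5 was 3.02, beside 1.92 over all genes, on the log2(FPKM + 1) scale. SEP3 and SEP2 exceeded the all-gene median by 2.41 and 2.19 and PI by 1.10, while STK and SEP1 stood at -1.73 and -2.16 from it. The SEP3 value depends on the pseudocount, since WT VC was at 0. With no filter, 6 members were called higher, where 53.3% of genes were. Those added were AG (0.53, adjusted p = 1.42e-05), AP3 (0.66, adjusted p = 0.000148) and SHP1 (0.89, adjusted p = 0.00701). The differences of AG, AP3 and SHP1 lay below the all-gene median in that setting, 0.98.

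The scaling between libraries bears on these differences, since most genes moved in the same direction. Median-ratio scaling lowered the all-gene median to 1.38 and quantile normalization to -0.02, and the share of called genes that were higher went from 85.3% to 77% and 52.4%. SEP2 and SEP3 were called higher under all 3, SEP2 with differences of 3.20 and 2.15 and adjusted p = 0.00462 and 0.022 under these scalings. PI, tested only through its V-Mt VC libraries, kept its call under median-ratio scaling (2.47, adjusted p = 3.33e-06) and lost it under quantile normalization (0.35, adjusted p = 0.467). SEP1 was called lower under both, at -0.79 (adjusted p = 0.027) and -2.30 (adjusted p = 1.63e-05), and STK turned to -0.27 (adjusted p = 0.647) and -1.73 (adjusted p = 0.00774).

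**Figure D3:**
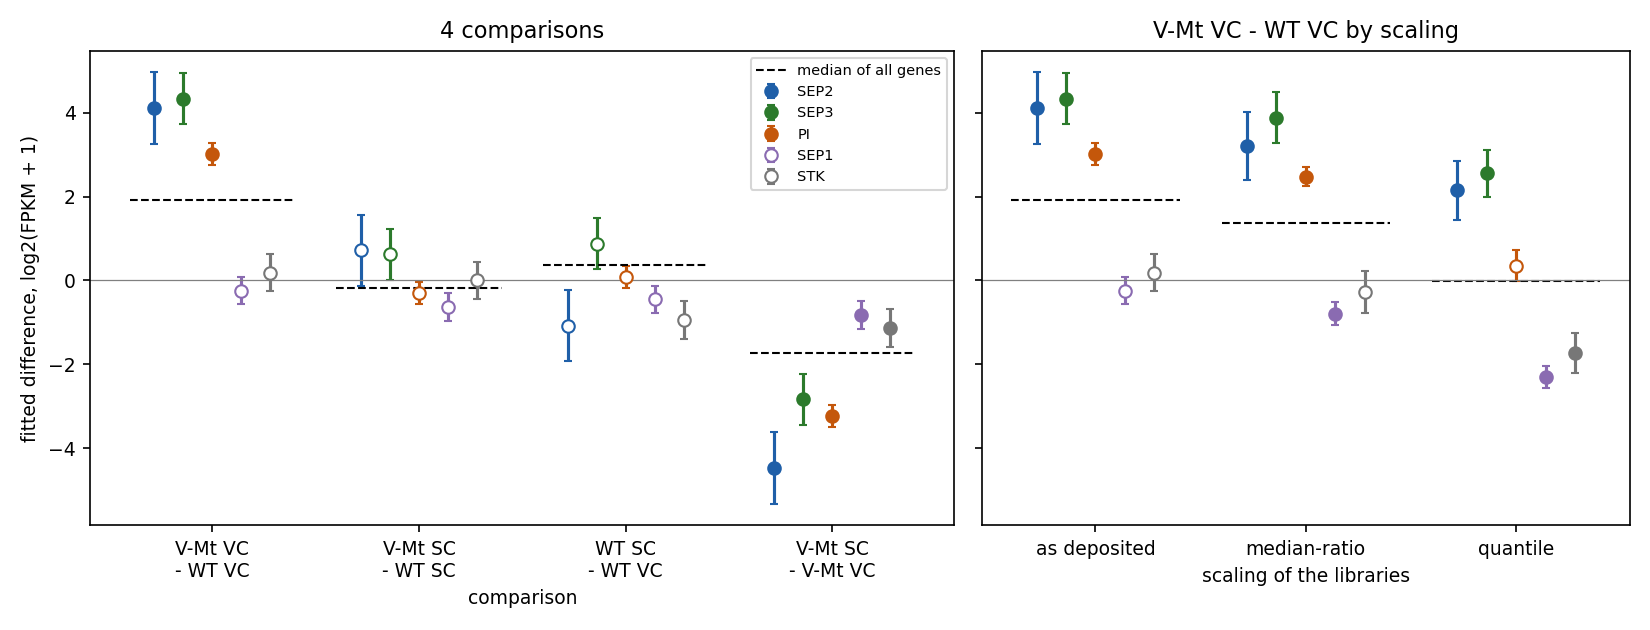
Fitted differences of the 5 tested members on the log2(FPKM + 1) scale, with SE bars, for 4 comparisons (left) and for V-Mt VC minus WT VC under 3 scalings (right); filled points passed an adjusted p of 0.05 and dashed lines mark the median of all genes. SEP2 and SEP3 lie above the dashed line under all 3 scalings, and SEP1 lies under it.

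In sperm nuclei the members did not separate the lines. Of 5 tested, 0 were called in V-Mt SC against WT SC, where 5.11% of genes were called in either direction. On the log2(FPKM + 1) scale the differences were 0.72 for SEP2 (SE 0.85, adjusted p = 0.67), 0.62 for SEP3 (SE 0.61, adjusted p = 0.589), -0.29 for PI (SE 0.26, adjusted p = 0.539) and -0.63 for SEP1 (SE 0.33, adjusted p = 0.292). The unadjusted p of each was 0.0868 or more. STK was at 0 in both groups. Without the third V-Mt SC library SEP2 turned to -0.17 and SEP3 went to 1.37 (adjusted p = 0.113), while without the first SEP3 went to 0.02.

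Between the cell types of WT pollen, 0 of 5 members were called, where 40.4% of genes were called in either direction. SEP2 stood at -1.08 (SE 0.85, adjusted p = 0.359), SEP3 at 0.88 (SE 0.61, adjusted p = 0.298) and STK at -0.94 (SE 0.45, adjusted p = 0.124) in WT SC minus WT VC, on the log2(FPKM + 1) scale. Without the first WT VC library the SEP2 value was -0.35. STK had the lowest unadjusted p of the 5, 0.0608. SEP3 and STK lie against a group listed at 0 here, so these fitted values depend on the pseudocount.

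Within the V-Mt line, all 5 tested members were called lower in SC than in VC, where 58% of genes were called lower. This comparison shares the V-Mt VC libraries with that against WT VC, and the entry of PI and STK into it again rested on those libraries. SEP2 fell by 4.47 (SE 0.85, adjusted p = 0.000721), PI fell by 3.22 (SE 0.26, adjusted p = 1.05e-06) and SEP3 fell by 2.83 (SE 0.61, adjusted p = 0.00169) on the log2(FPKM + 1) scale. Without the third V-Mt SC library these were -5.36 for SEP2, -3.27 for PI and -2.09 for SEP3. SEP1 (adjusted p = 0.0438) and STK (adjusted p = 0.0418) were listed at 0 in V-Mt SC; SEP1 lost its call without any 1 of the 6 libraries (adjusted p = 0.0818 to 0.163), and STK lost it in each of the 4 such fits that still tested it (adjusted p = 0.0682 to 0.0823). Under quantile normalization SEP2 alone was called (-3.37, adjusted p = 0.00172).

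Whether the V-Mt effect differed between the cell types was tested directly as the interaction. It was called higher in VC for 3 of 5 members, where 60.5% of genes were, PI again being tested only through its V-Mt VC libraries. The V-Mt effect in VC exceeded that in SC by 3.31 for PI (SE 0.37, adjusted p = 2.07e-05), by 3.39 for SEP2 (SE 1.2, adjusted p = 0.0278) and by 3.71 for SEP3 (SE 0.86, adjusted p = 0.00312) on the log2(FPKM + 1) scale, the last depending on the pseudocount because WT VC was at 0. Under quantile normalization PI (adjusted p = 0.603), SEP2 (adjusted p = 0.388) and SEP3 (adjusted p = 0.0772) all lost this call. The SEP2 interaction was the least firm, since it also lost its call under median-ratio scaling (adjusted p = 0.106) and without WT VC library 2 or 3 (adjusted p = 0.063 and 0.0687), the first or second V-Mt SC library (adjusted p = 0.0639 and 0.0607) or the second WT SC library (adjusted p = 0.0618). Without the third V-Mt SC library it was 4.28 (adjusted p = 0.00378). SEP1 (0.38, adjusted p = 0.489) and STK (0.19, adjusted p = 0.803) showed no interaction past the threshold.

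Late microspores held 9 of the 10 members at 1 FPKM or more in at least 3 of 6 libraries, SEP4 being the exception. Their table was normalized separately and their RNA differed in kind, so levels in microspores and pollen nuclei were not compared by a test. SEP3 stood at 91.9, 56.5 and 157 FPKM in V-Mt LMS and at 228, 102 and 124 FPKM in WT LMS. PI stood at 58.5, 53.7 and 38.2 FPKM in V-Mt LMS and at 89.6, 41.7 and 86.0 FPKM in WT LMS. SEP1, under 2 FPKM in every pollen library, stood at 27.3, 24.3 and 27.7 FPKM in V-Mt LMS and at 60.2, 25.2 and 30.4 FPKM in WT LMS. The groups overlapped for SEP3 and PI, and for SEP1 they overlapped through the second WT LMS library.

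AP3 stood at 10.95, 67.0 and 10.5 FPKM in V-Mt LMS and at 27.9, 63.3 and 52.1 FPKM in WT LMS. AP1 stood at 13.5, 39.3 and 1.32 FPKM in V-Mt LMS and at 6.44, 29.5 and 36.3 FPKM in WT LMS. AG stood at 6.06, 22.8 and 58.8 FPKM in V-Mt LMS and at 23.8, 11.9 and 0 FPKM in WT LMS. Replicates of these 3 genes differed many times over within a group, except for AP3 in WT LMS, and the groups overlapped. STK was listed at 0 in the second library of both groups and stood at 38.9 and 48.3 FPKM in the other V-Mt LMS libraries and at 262 and 152 FPKM in the other WT LMS libraries. SHP1 stood at 6.01, 0.96 and 0.26 FPKM in V-Mt LMS and at 21.0, 4.2 and 0 FPKM in WT LMS. SEP4 was seen in 1 microspore library, at 11.8 FPKM in the first of WT LMS, and was not tested.

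SEP2 was the member on which the microspore groups did not overlap. It stood at 12.5, 4.97 and 40.7 FPKM in V-Mt LMS and at 127, 101 and 93.6 FPKM in WT LMS, so every V-Mt library lay below every WT library, as for 7.52% of the 18002 genes tested. The difference was -2.84 (SE 0.70) on the log2(FPKM + 1) scale, with an unadjusted p of 0.00273 and an adjusted p of 0.618. By limma 0 of the 9 tested members were called, as 0% of all genes were (1195 genes, 6.64%, had an unadjusted p under 0.05). REF6, at 1160, 1175 and 506 FPKM in V-Mt LMS and 77.7, 108 and 125 FPKM in WT LMS, shared the lowest adjusted p of that comparison, 0.193. The 4 green tissue markers also summed lower in every V-Mt LMS library (1626, 1636 and 2298 FPKM) than in WT LMS (2368, 2899 and 3019 FPKM). Most of that sum was LHCB1.3. RCA and LHCB2.1 overlapped between the groups, and CA1 went mostly the other way (95.3, 102 and 161 FPKM against 98.3, 84.45 and 59.0 FPKM). Of the tapetum markers, A9 stood lower in V-Mt LMS (50.9, 59.6 and 135 FPKM against 285, 253 and 144 FPKM). ATA7, AMS, MS1 and MS2 overlapped between the groups, and DYT1 was at 0. The part of these markers in the SEP2 difference was not tested. SEP2 thus stood lower in V-Mt than in WT microspores and higher in V-Mt than in WT vegetative nuclei, with the first difference not past the threshold.

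**Figure D4:**
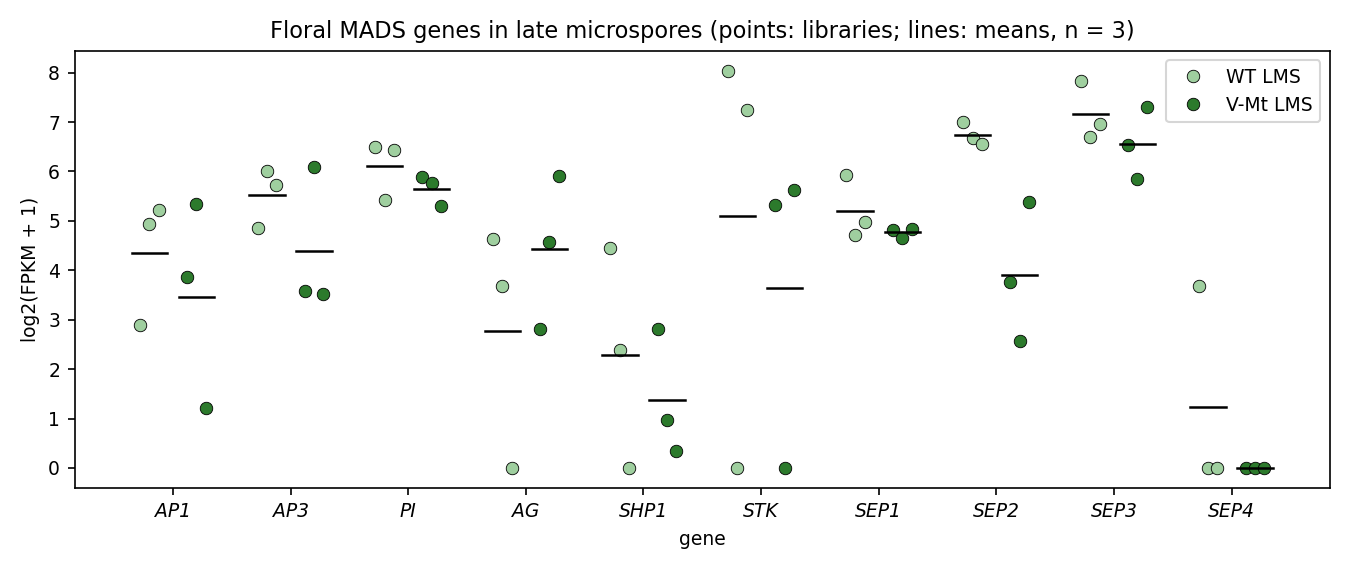
Levels of the 10 members in late microspores as log2(FPKM + 1), with 1 point per library and a line for the mean of each group (n = 3). SEP2 is the only member whose V-Mt and WT points do not overlap; AG, SHP1 and STK spread from 0 to high values within a group.

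Other tissue was looked for with marker lists. Tapetum and anther wall markers (6 genes) summed to 34.8 to 43 FPKM in V-Mt VC and 8.39 to 12.3 FPKM in WT VC, with A9, ATA7 and MS1 at 0 in WT VC and at no more than 2.41 FPKM in V-Mt VC. Most of that sum was MS2, at 31.2, 28.1 and 22.3 FPKM in V-Mt VC and 0.17, 0.22 and 0.08 FPKM in WT VC. AMS stood at 9.3, 8.41 and 11.35 FPKM against 7.22, 3.92 and 4.52 FPKM, and DYT1 went the other way, at 0, 0 and 0.66 FPKM against 1, 8.17 and 4.44 FPKM. Carpel and ovule markers (4 genes) summed to 5.5 to 10.3 FPKM against 0 to 0.04 FPKM, most of it CRC at 7.85, 5.17 and 9.29 FPKM, and green tissue markers (4 genes) to 26.2 to 30.1 FPKM against 0 to 0.36 FPKM. The 5 vegetative cell markers summed to 832 to 930 FPKM in V-Mt VC and to 3051 to 3367 FPKM in WT VC, and the 5 sperm markers to 129 to 140 FPKM against 42.3 to 64.2 FPKM. The sperm list was split too. MGH3, GCS1 and DUO1 (35.9, 36.7 and 32.4 FPKM against 0.28, 1.74 and 1.48 FPKM) were higher in V-Mt VC. GEX2 was lower there (1.9, 1.1 and 0.82 FPKM against 2.45, 3.42 and 2.49 FPKM), and DAZ1 overlapped. Microspore markers (4 genes) summed to 87.6 to 111 FPKM in V-Mt VC and 405 to 542 FPKM in WT VC, but were split. MYB81 stood at 34.4, 31.8 and 30.1 FPKM against 0, 0 and 0.02 FPKM, and LBD27 at 1.85, 1.68 and 4.75 FPKM against 0, 0.21 and 0.08 FPKM. LBD10 (60.4, 68.8 and 43.4 FPKM against 318, 417 and 415 FPKM) and BZIP34 were lower in V-Mt VC. Thus MS2, CRC, MYB81, LBD27 and the green list stood higher in V-Mt VC than in WT VC, as SEP2, SEP3 and PI did. The vegetative list, LBD10 and BZIP34 stood lower. In the SC groups the carpel list summed to 0 to 1.62 FPKM (V-Mt) and 0 to 3.38 FPKM (WT). The tapetum list summed there to 0.79 to 5.55 FPKM (V-Mt) and 0 to 1.84 FPKM (WT). The sperm list reached 4397 to 12820 FPKM in SC, where SEP2 and PI were low. The green list stood at 0.73, 8.27 and 36.4 FPKM in WT SC (lowest to highest), the last mostly LHCB1.3 at 27.55 FPKM in the first library. The part of what these lists mark in the results was not tested. In microspores the tapetum list summed to 990 to 1411 FPKM (V-Mt) and 1104 to 1510 FPKM (WT), with DYT1 at 0. Anther tissue normally makes class B, C and E factors, and the share of the microspore values that came from it was not tested.

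The isoform tables show where the gene values sit. SEP2 and PI were carried by their named AGI isoform in every pollen library that held them. SEP3 was not: its named isoforms made up 23.6%, 54.1% and 3.21% of its V-Mt VC gene value, the rest lying in transcript models without an AGI isoform name, and 0% of its WT SC value. The named SEP3 isoforms alone stood at 5.41, 9.58 and 0.55 FPKM in V-Mt VC. In microspores the third V-Mt library held 0% of its PI value in the named isoform, and AG held 0% to 36.3% of its value there. Reads of SEP1, SHP1 and STK could also come from neighbours that overlap them on the opposite strand (AT5G15790 and AT5G02455, AT3G09155 and AT3G58790, and AT4G09950), since strand use is not stated. Reads shared with near-identical relatives (SEP1 with SEP2, SHP1 with SHP2, AP1 with CAL) may likewise have been split.

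Across the 12 pollen libraries, the genes most like SEP2 in log2(FPKM + 1) were BSK4 (AT1G01740, a brassinosteroid signalling kinase, Pearson r = 0.978), CRLK1 (AT5G54590, a calcium-regulated receptor-like kinase, r = 0.976), AT5G14970 (r = 0.973), AT5G49640 (r = 0.972) and AT3G19920 (r = 0.972). Of 17090 genes compared, 361 (2.11%) had r of 0.9 or more with SEP2. For AG, which was above 0 in V-Mt VC alone, the nearest were AT5G56200, AT2G24350, AT3G20155, NAC090 (AT5G22380) and AT3G44820, each with r of 0.999 or more. As many as 3225 genes (18.9%) had r of 0.9 or more with AG, so its pattern over these libraries is a common one. Among the members, r was 0.96 for AG with PI, 0.94 for AP3 with PI, 0.92 for SEP3 with SHP1, 0.89 for PI with SEP2 and 0.66 for SEP2 with SEP3, and SEP1 with SEP2 gave 0.07. These values describe 12 points that share groups and depth.

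A list of 42 further flower development genes set the members in their pathway. In V-Mt VC against WT VC, 28 were tested, 17 called higher and 5 lower, beside 62.5% and 10.8% of all genes, with a median difference of 1.72 beside 1.92 over all genes. The count of higher genes was thus near the background and is no result about the list. The 6 tested MADS relatives of the members were called higher, but 5 of them (FUL, AGL6, TT16, SVP and AGL24) would not have reached the filter from the other 9 pollen libraries, so their entry into the test leaned on their V-Mt VC levels. FUL, an AP1 relative that acts in fruit growth, stood at 2.55, 1.35 and 2.09 FPKM in V-Mt VC (adjusted p = 2.64e-06), AGL6, a relative of the SEP genes, at 10.02, 10.07 and 9.03 FPKM (adjusted p = 6.94e-09), and SVP, a repressor of flowering, at 6.40, 4.54 and 6.86 FPKM (adjusted p = 1.63e-07), and all 3 were listed at 0 in WT VC. AGL24, TT16 and FLC stood at 1.96 to 10.5 FPKM in V-Mt VC and at 0.67 FPKM or less in WT VC. The differences of FUL (1.56) and AGL24 (1.66) lay below the all-gene median. The direct regulators LFY and AP2 were near the detection limit: LFY, the main activator of the class A, B and C genes, stood at 0.66, 0.27 and 0.18 FPKM and AP2, which keeps AG out of the outer whorls, at 0.28, 0.79 and 0.63 FPKM in V-Mt VC, with at most 0.08 FPKM in WT VC. SHP2 (0.54, 0 and 0.35 FPKM) and CAL (0.12, 0.12 and 0.08 FPKM), the nearest copies of SHP1 and AP1, were also low there and at 0 in WT VC.

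Of 8 tested repressors, 6 were called higher, where 62.5% of all genes were, and 3 of the 6, BEL1 among them, reached the filter only with V-Mt VC counted. The largest differences were those of BEL1, which keeps AG in check in ovules, and EMF1, which acts in Polycomb silencing of flower genes. BEL1 stood at 59.5, 60.3 and 44.2 FPKM in V-Mt VC and at 0, 0.04 and 0 FPKM in WT VC, a difference of 5.77 (SE 0.23, adjusted p = 6.99e-09) on the log2(FPKM + 1) scale. EMF1 stood at 81.2, 82.3 and 92.2 FPKM against 1.31, 1.50 and 0.84 FPKM, a difference of 5.29 (SE 0.36, adjusted p = 2.61e-07). Of 5 tested activators, 3 were called higher and 2 lower (HEN4 and HUA1), and of 3 tested targets 1 was called higher. Of the 6 pollen MADS genes, 3 were called lower and 1 higher, where 10.8% of all genes were lower. AGL18 stood at 151, 151 and 146 FPKM in V-Mt VC against 5533, 4864 and 5253 FPKM in WT VC (-5.12, SE 0.27, adjusted p = 3.78e-08), while AGL94 stood at 105, 96.8 and 66.6 FPKM against 3.19, 2.46 and 1.40 FPKM (4.76, SE 0.66, adjusted p = 6.42e-05). AGL66 and AGL104, pollen MADS genes that were not called there, stood at 150 to 167 and 541 to 571 FPKM in group means.

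**Figure D5:**
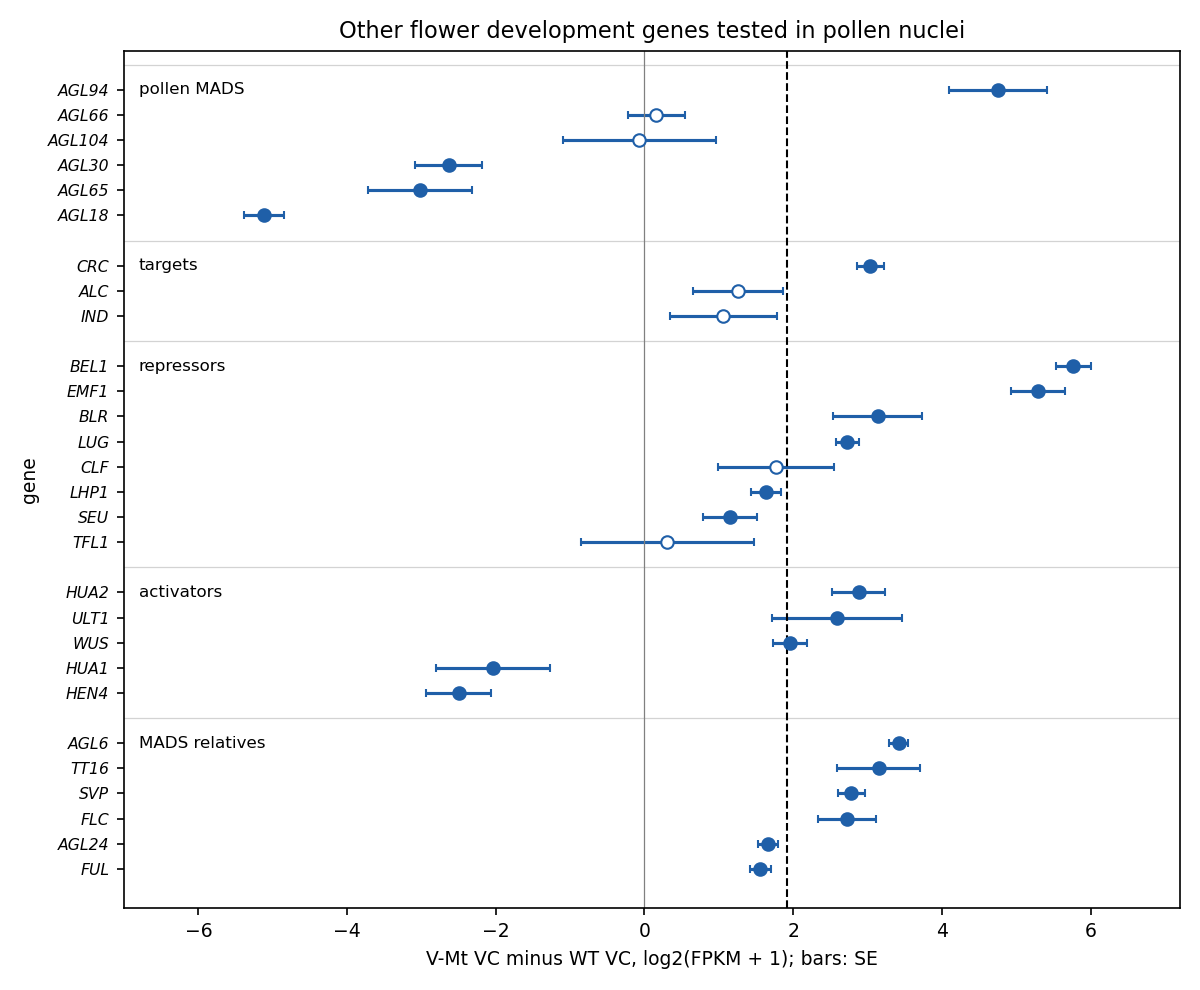
V-Mt VC minus WT VC on the log2(FPKM + 1) scale (SE bars) for the 28 tested genes of 5 lists of flower development genes; filled points passed an adjusted p of 0.05 and the dashed line is the median of all genes, 1.92. The 6 MADS relatives are all to the right of 0, but FUL and AGL24 lie left of the dashed line. The filled points to the left of 0 are the pollen MADS genes AGL18, AGL65 and AGL30 and the activators HEN4 and HUA1.

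In the other comparisons these lists behaved as follows. Of the same 28 genes, 0 were called in V-Mt SC against WT SC (5.11% of all genes). In WT SC against WT VC, 4 were called higher and 5 lower (27.3% and 13.1% of all genes), the lower ones including AGL65 (-4.53, SE 0.70, adjusted p = 0.000449), AGL66 (-3.28, SE 0.38, adjusted p = 5.91e-05) and AGL18 (-3.25, SE 0.27, adjusted p = 4.82e-06), and ALC, a fruit opening gene, being higher (3.24, SE 0.61, adjusted p = 0.00167). In V-Mt SC against V-Mt VC, 18 fell and 1 rose (58% and 13.4% of all genes), with BEL1 at -5.75 (adjusted p = 6.6e-09), EMF1 at -5.45 (adjusted p = 2.1e-07), AGL104 at -4.33 (adjusted p = 0.00313) and AGL94 at -3.87 (adjusted p = 0.000317). The interaction was called for 19 of the 28, 16 higher and 3 lower (60.5% and 7.18% of all genes). The counts that fell in V-Mt SC and that were higher in the interaction lay near these shares. Of the 28 genes, 11, BEL1 among them, reached the filter only with V-Mt VC counted, as did 35.3% of all genes tested. Their direction in these comparisons leaned on those libraries, so the counts are no result about the list. In microspores 0 of 27 were called (0% of all genes), with FUL at 0, 0 and 7.13 FPKM in V-Mt LMS and 80.8, 0 and 10.9 FPKM in WT LMS.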

How the data were processed

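The authors deposited FPKM per gene and per isoform in separate tables for 12 pollen libraries and 6 microspore libraries. For pollen, the submitters' processing notes name TAIR10 and, in no stated order, RSEM 1.3.1, Bowtie2 2.3.5, HISAT2 2.1.0 and StringTie 1.3.5. For microspores they name RSEM 1.3.1, HISAT2 2.1.0 and Bowtie2 without a version. Settings, strand use and the handling of multiply mapped reads were not found in the labels. Since the 2 gene tables were scaled apart, every test stayed within a table. Column names gave each library its group and replicate, and 2 stray lines of annotation text in the microspore table were left out.

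Genes reaching 1 FPKM in 3 or more libraries were tested with limma 3.58.1 (trend, R 4.3.3) on log2(FPKM + 1), with 1 mean per group, 2-sided, and Benjamini-Hochberg adjustment over all genes tested at 0.05. The pollen fit held all 12 libraries and the microspore fit 6. Differences on this scale understate the change of low genes. The script was tested on simulated data with known changes in a small set of genes, none of low mean level. Those data held no shift over all genes, so the test does not cover the broad shift seen here or low genes. Alternatives were pseudocounts of 0.1 and 0.5, no filter or a filter of 5 FPKM, median-ratio and quantile scaling, a replicate block, fits of the compared groups alone, and leaving out each library.

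Depth was estimated from the steps of low FPKM values, for transcripts of at least 1200 bases and an assumed fragment of 250 bases; 69.6% to 81.8% of low values lay within 0.2 of a whole fragment, where an even spread gives 40%. The step was set on these same values. Coordinates and sequences came from the TAIR10.1 reference; the tables hold no coordinates. All members are named, with, of the other flower genes, the 4 called genes of largest change per comparison and REF6, AP2, SHP2, CAL, FUL and LFY. For likeness, the 5 genes nearest to the most abundant member and to AG were taken. AGL6, SVP, AGL24, TT16, FLC, AGL30, CRC, HEN4 and HUA1 were named after their values were seen. The members and all lists were chosen with earlier results of these data known.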

Additional observations from a re-analysis of the deposited data

Results flagged for a closer look

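A test of the difference between the V-Mt effect in VC and that in SC (the interaction term of the limma fit, log2(FPKM + 1) scale) passed the threshold for the genes given here, the other flower genes being part of 19 called among 28 tested. Of the floral organ identity genes, PI had a larger effect in VC by 3.31, SEP2 by 3.39 and SEP3 by 3.71, with adjusted p = 2.07e-05, 0.0278 and 0.00312. PI, SEP2 and SEP3 lost these calls under quantile normalization. Of the other flower genes, BEL1 had a larger effect in VC by 5.81 (adjusted p = 2.39e-07), AGL94 by 5.08 (adjusted p = 0.000666) and EMF1 by 4.65 (adjusted p = 1.9e-05). Among the MADS relatives the effect was larger in VC by 3.42 for AGL6 (adjusted p = 2.38e-07), 2.61 for SVP (7.36e-06), 4.05 for TT16 (0.00109), 2.32 for FLC (0.00342), 1.66 for AGL24 (2.2e-05) and 1.58 for FUL (5.61e-05). It was larger by 3.04 for CRC (adjusted p = 2.1e-06) and by 8.05 for REF6 (0.000124). AGL18 went the other way, at -5.34 (adjusted p = 8.83e-07), as did AGL65, at -3.75 (adjusted p = 0.0066). PI, BEL1, AGL6, SVP, TT16, AGL24, FUL and CRC reached the filter only with their V-Mt VC libraries counted. Among all genes tested, 60.5% were called higher in this interaction.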

How the results depend on the processing

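Under all 14 alternatives run for V-Mt VC against WT VC, SEP2 (2.15 to 4.84 on the log2(FPKM + 1) scale) and SEP3 kept their calls. PI, which passed the main filter only through its V-Mt VC libraries, kept its call in 10 of the 11 that tested it. Members called higher there numbered 6 with no filter, and members called lower numbered 1 under median-ratio scaling and 2 under quantile normalization, where STK turned to -0.27 and -1.73; with 1 library left out it ran from -0.17 to 0.29 (-0.14 and -0.17 without WT VC library 2 and 3), as did its interaction. For V-Mt SC against WT SC, where 1008 genes were called, the count was 612 with no filter, 430 under quantile normalization, 2 with only these groups fitted and 480 to 3258 with 1 library left out (480 without the first WT SC library, 662 without the second and 3258 without the third); with 1 library left out, PI ran from -0.47 to 0.01 (the latter without the second WT SC library) and SEP2 from -0.17 (without the third V-Mt SC library) to 1.29. For WT SC against WT VC, members called lower numbered 1 with a pseudocount of 0.1, 1 under median-ratio scaling and 3 under quantile normalization; PI turned to -0.13 and -0.53 under these scalings, and ran from -0.21 (without the second WT SC library) to 0.27 with 1 library left out (-0.03 without the first WT VC library). For V-Mt SC against V-Mt VC, members called lower went from 5 to 3 with a filter of 5 FPKM, 3 under median-ratio scaling, 1 under quantile normalization, 3 with only these groups fitted and 2 to 3 with 1 library left out; SEP1 and STK turned to 0.16 and 0.08 under quantile normalization. For the interaction, members called higher numbered 5 with no filter and 0 under quantile normalization, where 2 were lower; SEP1 turned to -0.32 and -1.94 and STK to -0.27 and -1.79 under median-ratio scaling and quantile normalization. The SEP2 interaction had adjusted p = 0.0541 and 0.139 with pseudocounts of 0.5 and 0.1. For microspores, 2 genes were called without the second V-Mt LMS library, AP1 ran from -1.81 to 0.25 (without the third V-Mt LMS library) and STK from -4.00 to 0.37 (without the second V-Mt LMS library; 0.02 without the first WT LMS library). The cause of these shifts was not tested, except that a stricter filter tests fewer members and that leaving out a library can drop PI, STK or SEP1 below the filter.

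Libraries sharing a replicate number did not deviate together (correlations of -0.2 to 0.15), so the numbers do not pair them. With the replicate block, V-Mt SC against WT SC called 608 genes, and the adjusted p of the SEP2 interaction was 0.0501 and that of SEP1 in V-Mt SC against V-Mt VC 0.0587. Depth limits the members under 1 FPKM in pollen, which rest on about 1 to 21 fragments in a V-Mt VC library, and the shallow microspore libraries.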
